A study of Mus musculus with 4 samples.

Results

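The polyamine genes examined here are 10 genes of polyamine synthesis and turnover, *Odc1*, *Amd1*, *Srm*, *Sms*, *Oaz1*, *Oaz2*, *Azin1*, *Sat1*, *Smox* and *Dhps*. They were chosen by symbol in the deposited gene tables, where all 10 were found among 17559 listed genes. The series compares CD8+ T cells from C57BL/6 mice exposed to 1 mM NaBu for 12 h (2 libraries) with control cells (2 libraries). NaBu commonly stands for sodium butyrate, the salt of a bacterial fermentation product, which inhibits histone deacetylases. All 4 libraries came from OT-I cells, whose transgenic T cell receptor recognises an ovalbumin peptide, so the cells share 1 receptor specificity. The cells came from tissue labelled LN, were purified to above 95% by negative magnetic selection, and were stimulated for 2 d with 10 ng/ml IL-2 on plates that carried 1 µg/ml anti-CD3 together with 2 µg/ml anti-CD28. They then spent a further 2 d in IL-2 without the antibodies before the exposure. Since nothing in the labels tells if replicate libraries are separate cultures or animals, the p-values rest on a spread among samples that may be technical only.

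Polyamines (putrescine, spermidine and spermine) are small cations that bind nucleic acids and are needed for cell growth. They are made from ornithine and decarboxylated S-adenosylmethionine, and the pathway is held in check by antizymes, proteins that inactivate ornithine decarboxylase and are themselves made in response to polyamines. T cells switch polyamine synthesis on when they are activated, in large part through the transcription factor Myc, and use spermidine to modify the translation factor eIF5A.

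Expected counts summed to between 19857701 and 19859649 in the NaBu libraries and between 20344399 and 20548571 in the controls. Replicates differed beyond counting noise, NaBu libraries less (chi-square over degrees of freedom 2.77) than control libraries (7.27). All 7 CD8 T cell markers were present, with a summed FPKM (fragments scaled to transcript length and to the mapped total) of 2558 and 2584 in NaBu and 2656 and 2540 in control. *Thy1* gave the greatest part of that sum and was not called (edgeR log2 fold change -0.02), while *Cd3d* (-0.74), *Cd8b1* (-0.58), *Lck* (-0.50), *Cd8a* (-0.39) and *Cd3e* (-0.16) were called lower in NaBu and *Cd3g* (0.41) higher. Of 11 myeloid and dendritic markers, 7 were above 0, and *Lyz2*, *Csf1r*, *S100a8* and *S100a9* were at 0 in every library. The 7 summed to 40.48 and 38.35 in NaBu, against 16.56 and 14.99 in control, most of it from the lysosomal gene *Cd68*. All 5 that were tested were called. *Itgam* (log2 fold change 3.16), *Mpeg1* (2.59), *Cd68* (1.31) and *Itgax* (0.84) were higher in NaBu and *Xcr1* (-1.44) lower. The 3 CD4 T cell markers summed to 1.01 and 0.89 in NaBu and 0.54 and 0.39 in control. *Cd4* was called higher in NaBu (log2 fold change 4.59) on 41 and 40.25 counts, against 1 and 2 in control. *Foxp3* was not called, and *Cd40lg*, which was not tested, had 3 and 0 counts in NaBu and 7 and 6 in control. B cell markers (3 of 5 above 0) summed to 2.62 and 1.96 in NaBu against 5.73 and 4.07 in control. NK cell markers (3 of 3) summed to 38.76 and 38.09 in NaBu against 32.9 and 32.06 in control. Most of the NK sum was *Klrc1*, called higher in NaBu (log2 fold change 0.46). *Klrb1c* was called lower, with an FPKM of 4.94 and 5.57 in NaBu against 10.47 and 9.24 in control. *Ncr1*, which was not tested, had 0 and 0 counts in NaBu and 2 and 3 in control. The 3 red cell markers above 0 summed to 6.75 and 7.24 in NaBu against 1.16 and 1.29 in control. Most of that sum was *Hba-a1*, called higher in NaBu (log2 fold change 2.83) on 71 and 78 counts, against 11 and 9 in control. *Hbb-bs*, which was not tested, had 0 and 0 counts in NaBu and 2 and 6 in control. Stromal markers (3 of 4) summed to 17.59 and 16.94 in NaBu against 20.97 and 22.13 in control. Nearly all of the stromal sum was *Pecam1*, called lower in NaBu (log2 fold change -0.47), whereas *Col1a1* was called higher (2.70) on 65 and 65 counts in NaBu and 5 and 14 in control. *Ms4a1*, *Pax5*, *Hba-a2* and *Pdpn* were at 0 in every library. The part of these marker differences in the results below was not tested.

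After NaBu the genes of the first step of polyamine synthesis and of spermine oxidation rose, and those of the aminopropyl transfer steps fell. Of the 10 genes, all of which passed the filter on low counts, 4 were higher (*Odc1*, *Amd1*, *Oaz2* and *Smox*), 3 were lower (*Srm*, *Sms* and *Dhps*) and 3 did not pass the test (*Oaz1*, *Azin1* and *Sat1*). The test was edgeR's quasi-likelihood test with Benjamini-Hochberg adjustment over 12943 genes, called at an adjusted p of 0.05. Its fold changes use a further scale factor per library (TMM) that FPKM lacks, so ratios of the printed FPKM differ from them. In the same test 68.6% of all tested genes were called, 34.5% higher and 34.1% lower in NaBu, so the share of polyamine genes called, 70%, was near that of the transcriptome. Against a null of a 1.5-fold change (edgeR's glmTreat), 2 of the 10 were higher (*Smox* and *Oaz2*) and 1 lower (*Srm*), where 29.2% of all tested genes were called. Their median log2 fold change was 0.12, against 0.00 for all tested genes, and their median absolute log2 fold change was 0.50, against 0.46. FPKM values of the groups did not overlap for any of the 10 genes, where 84.0% of all tested genes had no overlap. In bulk samples such as these, fewer cells of a type and less RNA per cell cannot be told apart.

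**Figure D1:**
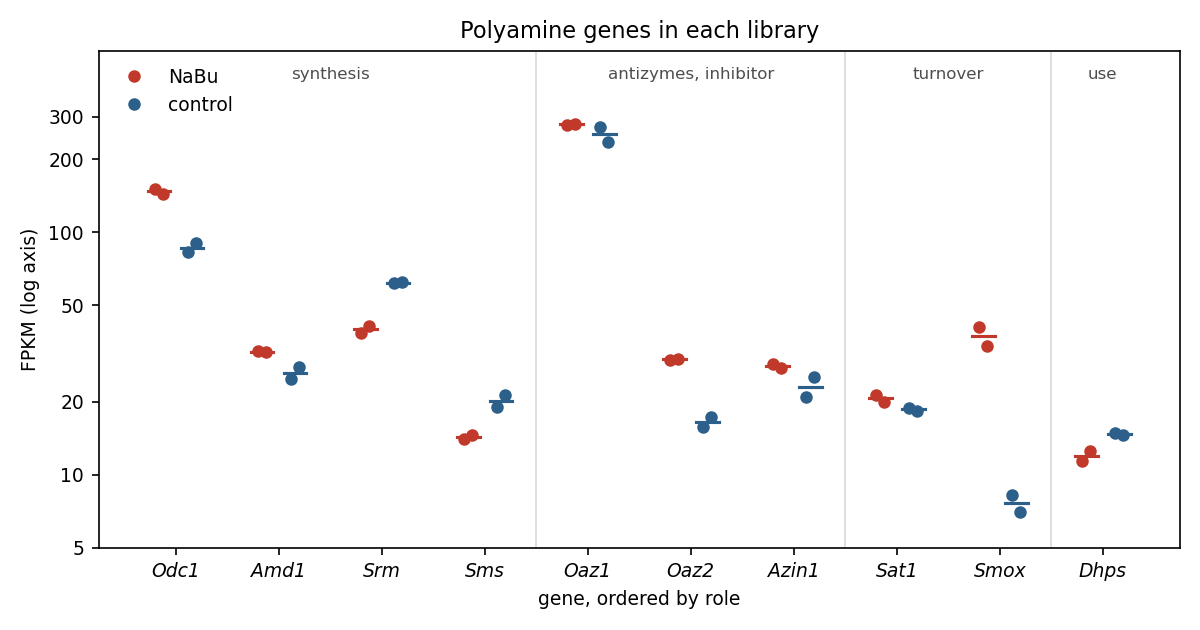
FPKM of each polyamine gene in each library on a log axis, with NaBu (red) left of control (blue); each point is 1 library and each bar the mean of 2. *Smox* has the mean of rank 4 in NaBu, 37.2, and the lowest of the 10 means in control, 7.66, while *Srm* and *Sms* were lower in both NaBu libraries.

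Levels of the 10 transcripts spread over a wide range. In NaBu the mean FPKM ran, from the highest down, through *Oaz1* (278.8), *Odc1* (147.9), *Srm* (39.7), *Smox* (37.2), *Amd1* (32.2), *Oaz2* (29.9), *Azin1* (28.2), *Sat1* (20.7), *Sms* (14.3) and *Dhps* (12.0). The FPKM of *Srm* and *Smox* overlapped between libraries there, and no other neighbours in that order did. In control the order was *Oaz1* (254.4), *Odc1* (86.4), *Srm* (62.0), *Amd1* (26.3), *Azin1* (23.1), *Sms* (20.2), *Sat1* (18.6), *Oaz2* (16.5), *Dhps* (14.8) and *Smox* (7.66). There *Azin1* overlapped with both of its neighbours, *Amd1* and *Sms*. *Smox* therefore had rank 4 of 10 in NaBu and rank 10 in control.

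Among the enzymes of synthesis, *Odc1* and *Amd1* were higher and *Srm* and *Sms* lower. *Odc1* (gene 18263, mm10 chr12:17544808-17551502) encodes ornithine decarboxylase, which makes putrescine and is the rate-limiting enzyme of the pathway. Its FPKM was 151.45 and 144.33 in NaBu libraries 1 and 2, against 82.93 and 89.96 in control libraries 1 and 2. Both NaBu values lay well above both controls. The change was 1.6-fold (log2 fold change 0.68 ± 0.07 SE, edgeR adjusted p = 5.91e-06), on 7688.78 and 7328.12 expected counts in NaBu and 4313.22 and 4725.04 in control. By glmTreat *Odc1* was not called (adjusted p = 0.0928).

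*Amd1* (gene 11702, chr10:40287458-40302188) encodes S-adenosylmethionine decarboxylase, the source of the aminopropyl groups added to putrescine. It had an FPKM of 32.41 and 32.04 in NaBu, against 24.77 and 27.85 in control, with no overlap. The log2 fold change was 0.20 ± 0.07 (SE), 1.15-fold (edgeR adjusted p = 0.0274). This small rise was not called without control 1 (log2 fold change 0.11, adjusted p = 0.11), without NaBu 1 (0.19, adjusted p = 0.182) or without NaBu 2 (0.20, adjusted p = 0.156), nor by DESeq2 (adjusted p = 0.0725) or with no filter on low counts (adjusted p = 0.114). *Amd2*, a near copy of *Amd1* on the same chromosome with which reads could be shared, had an FPKM of 1.32 and 2.07 in NaBu against 0.92 and 1.38 in control, and *Amd1* held between 93.9% and 96.4% of the summed counts of both. The sum, scaled by TMM, came to a CPM (counts scaled to a common library size) of 105.2 and 106.6 in NaBu and 85.7 and 97.7 in control.

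*Srm* (gene 20810, chr4:148591513-148594619) encodes spermidine synthase, which adds an aminopropyl group to putrescine. Its FPKM was 38.36 and 41.12 in NaBu, against 61.48 and 62.55 in control. The NaBu libraries were both far below the controls, and the change was 1.67-fold lower (log2 fold change -0.74 ± 0.07 SE, edgeR adjusted p = 3.45e-06). *Sms* (gene 20603, chrX:157443851-157492287) encodes spermine synthase, which adds the next aminopropyl group to spermidine. It had an FPKM of 14.01 and 14.64 in NaBu and 19.1 and 21.38 in control, again with no overlap, and was 1.51-fold lower (log2 fold change -0.60 ± 0.08 SE, adjusted p = 4.65e-05). Within a library the FPKM of *Srm* was 2.74 and 2.81 times that of *Sms* in NaBu and 3.22 and 2.93 times in control. Both synthases thus stood lower in NaBu, at a ratio between them of 0.903 times the control ratio.

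Of the antizymes and the antizyme inhibitor, *Oaz2* was called and *Oaz1* and *Azin1* were not. Whether their changes differ from each other was not tested. *Oaz1* (gene 18245, chr10:80826656-80829290) and *Oaz2* (gene 18247, chr9:65676548-65690300) encode antizymes 1 and 2, which bind ornithine decarboxylase, send it to the proteasome and lower polyamine uptake. Full-length antizyme is made only when the ribosome changes frame at a stop codon early in the message, a step that polyamines favour and that RNA counts do not show. The 30 bases around this site are printed because both genes keep it, with capitals marking the TCC codon and the TGA stop at which the frame shifts, from GENCODE M21 transcripts (GRCm38).
Oaz1: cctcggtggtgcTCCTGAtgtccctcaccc
Oaz2: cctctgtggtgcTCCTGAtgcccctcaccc
Counted from the 5′ end of the window, 28 of the 30 bases were identical and the differences from *Oaz1* to *Oaz2* were G5T and T21C.

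*Oaz1* had the highest level of the 10 genes in each library. Its FPKM was 277.93 and 279.73 in NaBu, against 272.81 and 236.04 in control. On the TMM scale used for the test the values overlapped, at a CPM of 288.8 and 291.1 in NaBu and 303.0 and 262.7 in control, the only one of the 10 genes to do so (84.1% of all tested genes had no overlap on that scale). The log2 fold change was 0.04, with a 95% interval from -0.13 to 0.20 (edgeR adjusted p = 0.683). On that scale the NaBu values lay between the controls, and the log2 fold change was 0.14 (adjusted p = 0.0346) without control 1 and -0.07 (adjusted p = 0.224) without control 2.

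*Oaz2* had a far lower level and was higher in NaBu. Its FPKM was 29.82 and 30.06 in NaBu, against 15.77 and 17.3 in control. That was a 1.69-fold rise (log2 fold change 0.76 ± 0.08 SE, edgeR adjusted p = 8.39e-06), and it was called in all 17 alternative fits. *Azin1* (gene 54375, chr15:38487430-38519294) encodes antizyme inhibitor 1, a relative of ornithine decarboxylase without its activity that binds antizyme and so frees the enzyme. Its FPKM was 28.75 and 27.59 in NaBu, against 20.9 and 25.23 in control, the wider gap being between the controls. The log2 fold change was 0.19, with a 95% interval from 0.00 to 0.37 (edgeR adjusted p = 0.0686). *Azin1* was called higher in 8 of 17 alternative fits, among them library totals as the scale (0.28, adjusted p = 0.0105), without control 2 (0.32, adjusted p = 0.00158) and the trend on transcript GC content removed (0.35, adjusted p = 4.56e-05). Without control 1 it was 0.05 (adjusted p = 0.404). The transcript of *Azin1* has a GC content of 39.3%, against a median of 49.9% over tested genes.

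Set against each other within a library, the FPKM of *Odc1* was 0.492 and 0.466 times the sum of both antizymes in NaBu, against 0.287 and 0.355 times in control. The groups did not overlap, and the mean ratio was 1.49 times as high in NaBu. *Odc1* was 5.27 and 5.23 times *Azin1* in NaBu and 3.97 and 3.57 times in control. *Azin1* was 0.0934 and 0.0891 times the antizyme sum in NaBu, which lay between the control values of 0.0724 and 0.0996. With 2 libraries per group the smallest two-sided p of an exact permutation test is 0.33, and these ratios are given as descriptions.

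**Figure D2:**
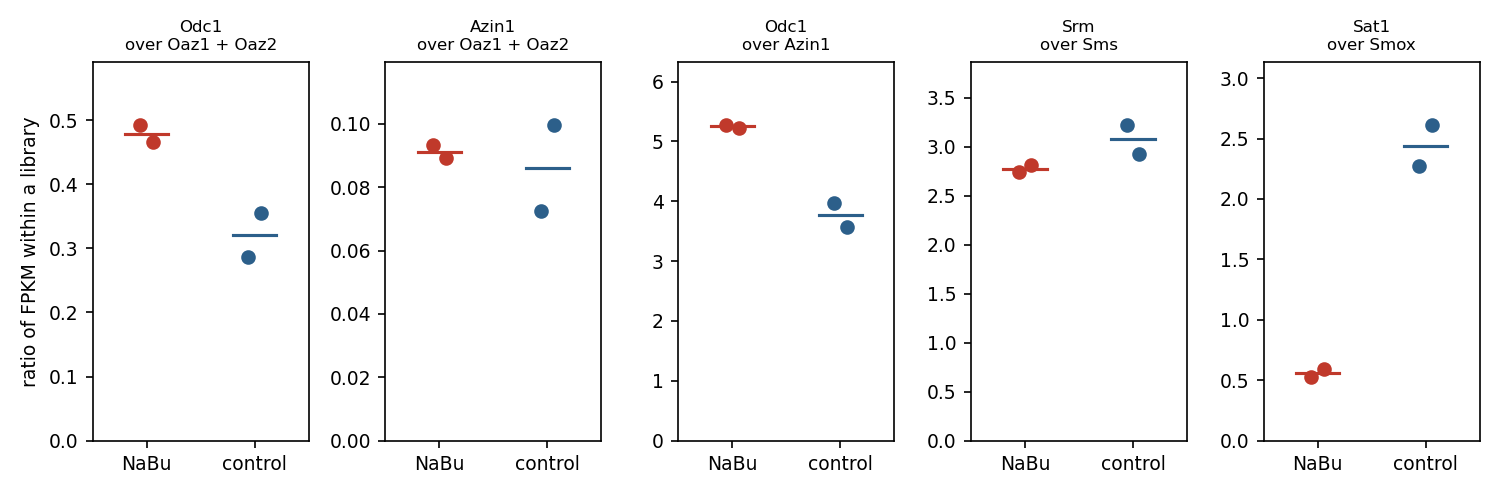
Ratios of FPKM within a library, with NaBu (red) left of control (blue), each panel on its own linear axis from 0; points are libraries and bars means of 2. The ratio of *Sat1* to *Smox* is 0.524 and 0.592 in NaBu and 2.27 and 2.61 in control, and the ratio of *Azin1* to the antizymes overlaps between the groups.

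In turnover, *Smox* had the largest change of the 10 genes. It encodes spermine oxidase (gene 228608, chr2:131491858-131525183), which turns spermine back into spermidine and releases hydrogen peroxide. Its FPKM was 40.62 and 33.83 in NaBu, against 8.27 and 7.05 in control, so the lower NaBu library was far above both controls. This was a 4.39-fold rise (log2 fold change 2.13 ± 0.11 SE, edgeR adjusted p = 4.5e-08), on 1543 and 1325 counts in NaBu and 341 and 288 in control. The change lay at the 93.4th percentile of all tested genes and ranged from 2.00 to 2.26 over 17 alternative fits. Of the 10 genes only *Smox* was called with a change of at least 2-fold in either direction, as were 2984 of the 12943 tested genes. *Smox* is listed with 9 RefSeq transcripts, and its weighted length was 1914.86 and 1973.13 bases in NaBu and 2027.37 and 1988.35 in control.

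*Sat1* (gene 20229, chrX:155213126-155216449) encodes spermidine/spermine acetyltransferase, which marks polyamines for export or oxidation. Its FPKM was 21.3 and 20.03 in NaBu, against 18.81 and 18.4 in control. These values did not overlap but lay close together. The log2 fold change was 0.06, with a 95% interval from -0.13 to 0.25 (edgeR adjusted p = 0.562), and *Sat1* was called in none of the 17 alternative fits. Its FPKM was 0.524 and 0.592 times that of *Smox* in NaBu, against 2.27 and 2.61 times in control, so their order was opposite in the groups.

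Capitals in the 300 bases around the annotated start (250 before and 50 after, RefSeq, GRCm38.p6) mark GC boxes, GGGCGG on either strand, the letters bound by Sp1-type factors. The start used for a window is not always the first base of the gene span printed in this report. It lies inside the span for *Odc1*, *Smox* and *Dhps*. The *Dhps* window and the downstream *Sms* window lie wholly inside their genes, so they do not cover the bases before those spans. Neighbouring matches may overlap, as 2 of *Oaz2* do. The promoters of the 3 members that rose by over 1.5-fold are shown, read 5′ to 3′ on the strand of the gene, from chr2:131491612-131491911 (plus strand) for *Smox*, chr12:17544623-17544922 (plus strand) for *Odc1* and chr9:65676298-65676597 (plus strand) for *Oaz2*.
Smox: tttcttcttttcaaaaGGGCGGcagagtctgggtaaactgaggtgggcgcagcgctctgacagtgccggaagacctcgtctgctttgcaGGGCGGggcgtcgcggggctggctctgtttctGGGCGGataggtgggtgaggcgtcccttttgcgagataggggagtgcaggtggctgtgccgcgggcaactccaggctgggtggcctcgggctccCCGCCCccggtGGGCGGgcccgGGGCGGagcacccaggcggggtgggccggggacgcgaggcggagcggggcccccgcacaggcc
Odc1: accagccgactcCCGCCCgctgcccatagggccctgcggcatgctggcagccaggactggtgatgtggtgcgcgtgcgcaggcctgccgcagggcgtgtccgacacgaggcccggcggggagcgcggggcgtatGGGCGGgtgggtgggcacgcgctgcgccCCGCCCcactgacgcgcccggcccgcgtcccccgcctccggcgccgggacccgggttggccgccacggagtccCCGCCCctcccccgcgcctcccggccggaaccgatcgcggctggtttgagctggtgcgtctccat
Oaz2: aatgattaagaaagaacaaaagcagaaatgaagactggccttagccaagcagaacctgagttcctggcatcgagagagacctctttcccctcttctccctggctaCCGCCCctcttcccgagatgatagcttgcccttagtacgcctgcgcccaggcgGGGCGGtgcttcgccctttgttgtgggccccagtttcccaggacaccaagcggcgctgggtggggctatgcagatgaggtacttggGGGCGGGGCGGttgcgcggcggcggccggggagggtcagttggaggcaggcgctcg
There were 6 matches for *Smox*, 4 for *Odc1* and 4 for *Oaz2*. *Amd1* had 1, *Sat1* had 2, *Oaz1* and *Dhps* had 0, and the 2 annotated starts of *Sms* had 0 and 4. At least 1 match was present in 35.7% of 32851 promoter windows of the same length, which gives no background for several matches. The GC content was 71.0% in the window of *Smox*, 78.0% in that of *Odc1* and 61.7% in that of *Oaz2*. In the other member windows it ran from 50.3% to 74.3%. Any link between these matches and the changes was not tested. The E-box CACGTG, the letters bound by Myc with Max, was present in 7.15% of the windows and, among the 8 members with a window, in the upstream *Sms* window only; it shared no base with a GC box. The promoter annotation used here held no window for *Srm* or *Azin1*, so neither could be searched.

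*Dhps* encodes deoxyhypusine synthase (gene 330817, chr8:85071486-85075162), which moves part of spermidine onto a lysine of eIF5A. Its FPKM was 11.41 and 12.5 in NaBu, against 14.93 and 14.62 in control. Both NaBu values were below both controls, and the change was 1.32-fold lower (log2 fold change -0.40 ± 0.09 SE, edgeR adjusted p = 0.00289). The gene overlaps *Wdr83*, which had a log2 fold change of -0.23 (adjusted p = 0.047), and without a stated strand the reads of overlapping genes cannot be told apart. *Oaz1* likewise overlaps *Mir1982*, listed with a mean FPKM of 7.91 in NaBu and 10.9 in control. Expected counts of *Odc1*, *Amd1*, *Sms*, *Oaz1* and *Dhps* were not whole numbers, so some of their reads were divided with other genes, whereas those of *Srm*, *Oaz2*, *Azin1*, *Sat1* and *Smox* were whole in all libraries.

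**Figure D3:**
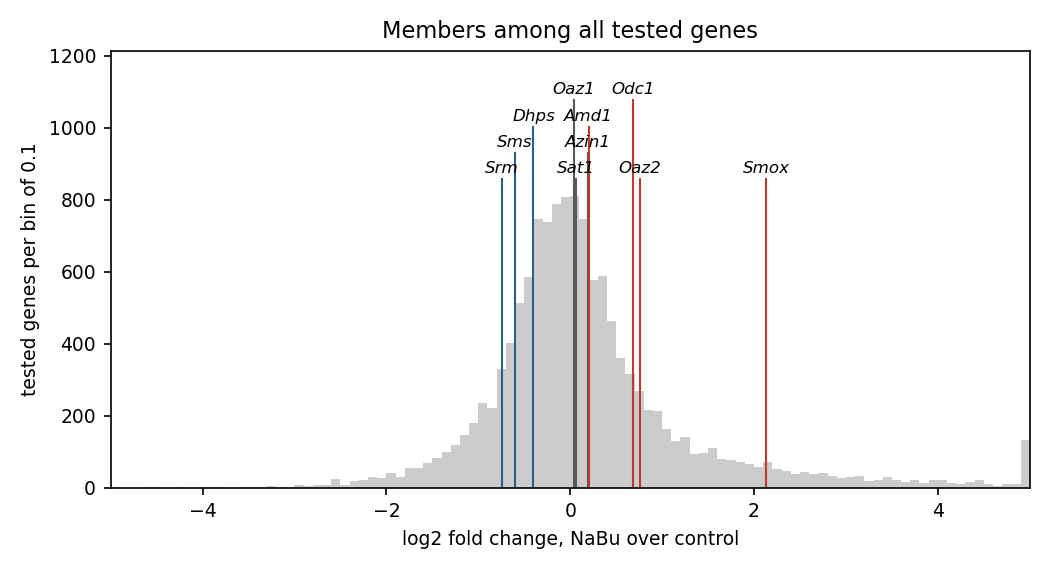
Histogram of the log2 fold change of all tested genes (grey, bins of 0.1, with values beyond the axis gathered in the outermost bins) and the 10 polyamine genes as lines (red called higher, blue called lower, dark grey not called). *Smox*, at 2.13, stands in the right tail; the others lie between -0.74 and 0.76.

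Genes that feed, salvage and carry polyamines moved in both directions as well. Of 31 further pathway genes, 30 were listed in the files and 25 were tested, of which 7 were higher, 10 lower and 8 not called, or 68.0% called, which is near the 68.6% of all tested genes. The median log2 fold change was 0.05. With library totals as the scale, on which the median of all tested genes was 0.102 and not 0.005, the split was 8 higher and 7 lower.

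Ornithine supply was mixed. Transcripts of arginase, the enzyme that yields ornithine from arginine, were almost absent. *Arg1* had an FPKM of 0 in both NaBu libraries and of 0 and 0.03 in control. *Arg2* had an FPKM of 0.28 and 0.57 in NaBu against 0.03 and 0 in control. Its counts were 7.93 and 16.05 in NaBu and 1 and 0 in control, and *Arg2* was not tested. *Oat*, encoding ornithine aminotransferase, which links ornithine to glutamate and proline, fell 1.96-fold in the test (edgeR adjusted p = 1.75e-06). Its FPKM was 15.92 and 16.76 in NaBu, against 28.28 and 31.63 in control. The mitochondrial ornithine carrier gene *Slc25a15* rose 1.67-fold, with an FPKM of 6.64 and 6.68 in NaBu and 3.9 and 3.55 in control (adjusted p = 3.8e-05). *Aldh18a1*, of proline and ornithine synthesis from glutamate, was lower by a log2 fold change of -0.16 (adjusted p = 0.0323) and was not called on library totals (-0.06, adjusted p = 0.379), without NaBu 1 (adjusted p = 0.189) or without NaBu 2 (adjusted p = 0.216).

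In S-adenosylmethionine supply, *Mat2a*, the catalytic subunit of the synthetase, fell 1.24-fold (adjusted p = 0.00117), while *Mat2b* (log2 fold change 0.08) and *Ahcy* (0.02) were not called. Of the 5 genes that salvage methylthioadenosine, the by-product of aminopropyl transfer, *Mtap*, the phosphorylase that opens the salvage path, rose 1.72-fold. Its FPKM was 47.14 and 45.51 in NaBu and 24.41 and 26.1 in control. *Mri1*, which acts at the next step, fell 1.94-fold (10.49 and 11.84 in NaBu, 20.88 and 19.68 in control) and *Enoph1* fell 1.38-fold. *Mri1* (with *D8Ertd738e*), *Enoph1* (*Hnrnpdl*), *Mat2a* (*Ggcx*), *Eif5a* (*Gps2*), *Paox* (*Echs1*) and *Arg2* (*Vti1b*) overlap other genes. Expected counts of *Mri1*, *Mat2a* and *Arg2* were not whole in all libraries, so reads there may be shared and their values are uncertain to that extent. Those of *Enoph1*, *Eif5a* and *Paox* were whole in all libraries, so no division of their reads with other genes was seen. *Apip* (log2 fold change 0.05) and *Adi1* (0.17) were not called, although *Adi1* was called on library totals (0.27, adjusted p = 0.00794) and without control 2 (0.21, adjusted p = 0.031).

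Among the relatives of the 10 genes, *Azin2* was called higher. It encodes antizyme inhibitor 2, which is best known from brain and testis, and had an FPKM of 3.41 and 3.43 in NaBu, against 0.19 and 0.1 in control. Its counts were 141 and 142 in NaBu and 8 and 4 in control. The fitted change was 22.3-fold (log2 fold change 4.48 ± 0.28 SE, edgeR adjusted p = 2.13e-07). Its size rests on those few control counts, and the log2 fold change was 5.05 without control 1, 4.06 without control 2, 3.87 on log2(FPKM + 0.1) and 1.95 on log2(FPKM + 1), where *Smox* (2.14) was higher. Its FPKM in NaBu was far below the 28.2 of *Azin1*. *Paox*, encoding the oxidase of acetylated polyamines, fell 1.51-fold in the test (edgeR adjusted p = 0.000182), the opposite direction to *Smox*. The FPKM of *Paox* was 11.2 and 11.08 in NaBu, against 16.75 and 14.81 in control. *Oaz3*, *Sat2* and *Mat1a* had an FPKM below 0.3 in each library and were not tested. *Amd2* was not called (log2 fold change 0.47, adjusted p = 0.117). Its value was 0.11 (adjusted p = 0.759) without NaBu 2 and 0.20 (adjusted p = 0.534) without control 1, and it was called without NaBu 1 (0.75, adjusted p = 0.0394) and with the GC trend removed (0.59, adjusted p = 0.0299).

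Of the hypusine genes, *Eif5a*, which encodes the main target of deoxyhypusine synthase, fell 1.48-fold, as *Dhps* did. It had an FPKM of 638.52 and 679.51 in NaBu and 892.38 and 925.86 in control (edgeR adjusted p = 2.56e-05). Its paralog *Eif5a2* rose 1.55-fold at a much lower level, 5.66 and 5.43 in NaBu and 3.03 and 3.65 in control. *Dohh*, encoding the enzyme that completes hypusine, overlapped between groups, at 22.07 and 25.55 in NaBu and 26.0 and 21.33 in control. It was not called (log2 fold change -0.09, adjusted p = 0.494), but with the GC trend removed it was lower (-0.50, adjusted p = 5.07e-05).

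Among transporters, *Atp13a2*, encoding the lysosomal polyamine exporter, rose 4.4-fold. Its FPKM was 17.88 and 17.59 in NaBu, against 4.19 and 3.35 in control (log2 fold change 2.14 ± 0.10 SE, edgeR adjusted p = 2.64e-08). Over 17 alternative fits the log2 fold change of *Atp13a2* ranged from 1.72, with the GC trend removed, to 2.30, and it was called each time. *Slc7a1*, the main carrier of arginine and other cationic amino acids in many cells, fell 1.81-fold, at 18.71 and 19.59 in NaBu and 31.7 and 33.4 in control. *Atp13a3*, a relative of *Atp13a2* linked to polyamine uptake, and *Slc3a2*, the shared heavy chain of amino acid carriers, were slightly lower (log2 fold changes -0.20 and -0.24). Neither was called on library totals (adjusted p = 0.231 and 0.0574) or without NaBu 1 (adjusted p = 0.195 and 0.125), and *Atp13a3* was also not called without control 2 (adjusted p = 0.137), without NaBu 2 (adjusted p = 0.175) or with the GC trend removed (adjusted p = 0.417). *Slc18b1* and *Slc7a2* were near the limit of detection, below an FPKM of 0.7 in each library, and not called.

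*Myc* and *Max*, whose products together activate *Odc1* and other genes of the pathway, were both higher. *Myc* had an FPKM of 182.4 and 179.2 in NaBu and 104.72 and 93.34 in control, a 1.71-fold rise (edgeR adjusted p = 3.2e-06). *Max* had 98.56 and 93.33 in NaBu and 49.47 and 50.44 in control, a 1.79-fold rise (adjusted p = 6.06e-07). *Odc1* was higher too, and *Srm*, also known as a Myc target, was lower. Any link between *Myc* or *Max* and the change of either gene was not tested.

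**Figure D4:**
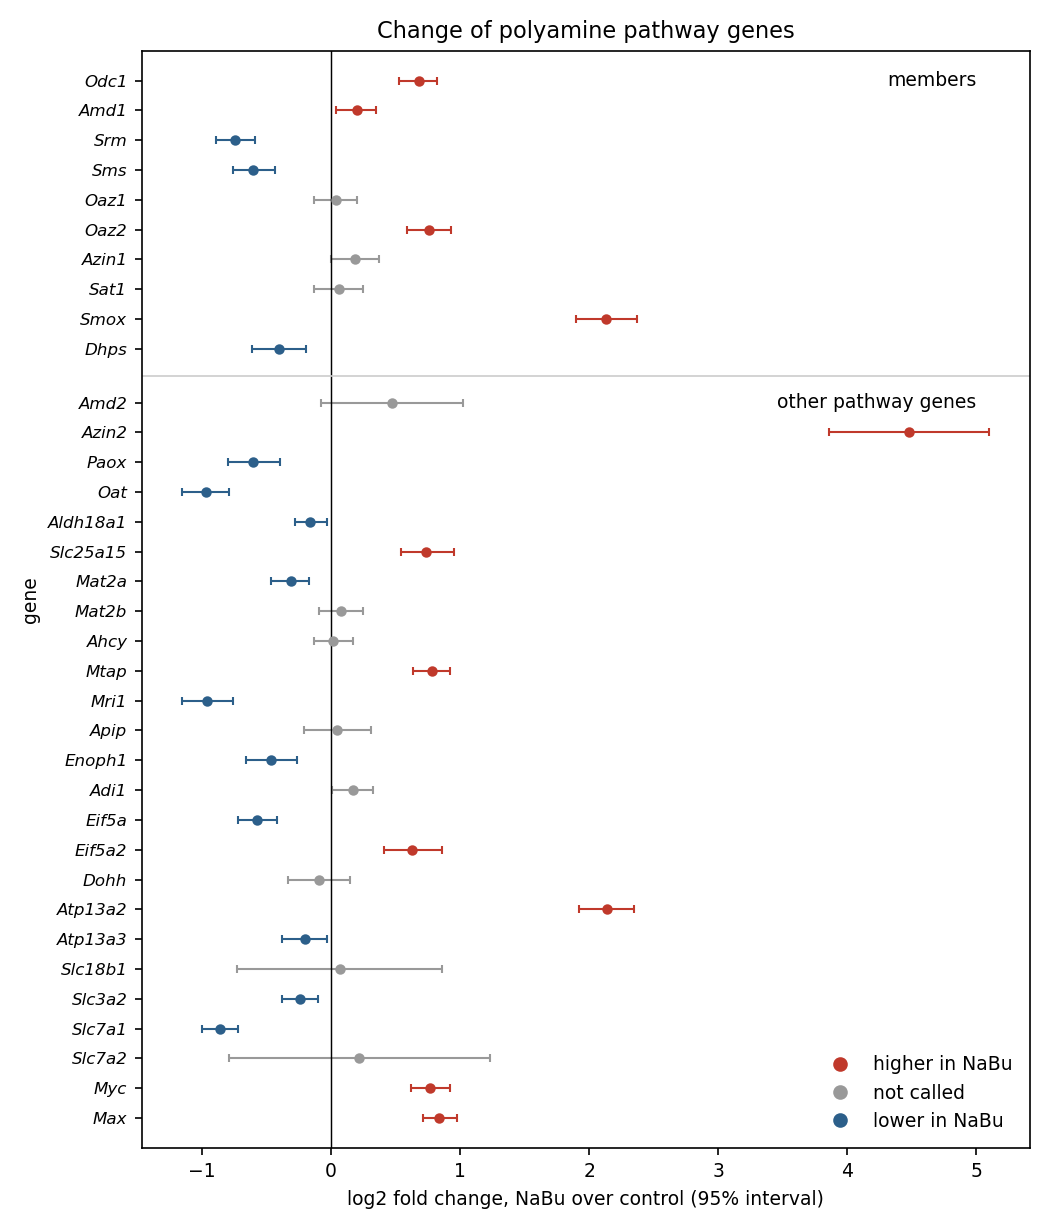
Log2 fold change of NaBu over control for the 10 polyamine genes (top) and the 25 tested further pathway genes (bottom); points are edgeR estimates, bars 95% intervals, red called higher, blue called lower and grey not called. *Azin2* (4.48), *Atp13a2* (2.14) and *Smox* (2.13) lie farthest to the right, and *Oat* (-0.97) and *Mri1* (-0.96) farthest to the left.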

How the data were processed

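Gene expression was measured by RNA-seq of total RNA in 2 NaBu and 2 control libraries, grouped by the sample titles. The submitters' processing notes name Bowtie2, RSEM and mm10. Their versions, the library kit and the strand setting are not given in the sources here. The deposited files hold the authors' expected counts, which are not normalized, and FPKM values, scaled to transcript length and mapped fragments, beside a length for each gene, per the file headers. The deposited series table holds the same FPKM values. Genes a library does not list were set to 0.

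Expected counts were rounded and tested with edgeR 4.0.16 (R 4.3.3), with TMM factors of 1.035 and 1.033 (NaBu) and 0.968 and 0.9658 (control), the default filterByExpr (12943 genes kept) and no covariates. Standard errors were obtained from the log2 fold change and its F statistic, as |log2 fold change| / √F. Each gene had 2 residual degrees of freedom, to which the prior added 8.25. Alternatives were other scale factors, other filters, limma 3.58.1 (voom, and log2 of FPKM plus 1 or 0.1), DESeq2 1.42.0, glmTreat, the replicate number as a block and each library left out. The removal of the GC trend, from GENCODE M21 transcripts covering 91.4% of listed genes, was chosen after seeing the data. Coordinates are RefSeq's for GRCm38.p6 (mm10). Of the 10 members, 8 had a promoter in the RefSeq table. The fits were also run on counts simulated with the same spread for all genes and both groups. There edgeR called 80.2% of genes changed 1.5-fold and 0.0314% of unchanged genes. Replicate spread differed between the real groups, so these shares may not hold for the real data. The members, gene lists and tests were chosen with earlier results of these data known. All members are named, and further genes come from a list of 31 pathway genes. Of the red cell markers listed, 1 is not reported here.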

Additional observations from a re-analysis of the deposited data

How the results depend on the processing

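Over 17 alternative fits, *Smox*, *Oaz2* and *Srm* were called in their direction each time, with log2 fold changes from 2.00 to 2.26, 0.69 to 0.86 and -1.01 to -0.63. *Odc1* (0.61 to 0.78), *Sms* (-0.68 to -0.47) and *Dhps* (-0.47 to -0.29) were called in all but glmTreat against a fold of 1.5. Under glmTreat, 2 members were higher and 1 lower, 5 further pathway genes were higher and 3 lower, and 2214 of all tested genes were higher and 1565 lower. This test asks for a larger change, so fewer calls follow from its construction. The replicate number as a block gave 5 members higher and 3 lower, adding *Azin1* (0.19, adjusted p = 0.0292), and 8853 calls over all genes against 8884. *Amd2* was gained (adjusted p = 0.0292) and *Aldh18a1* lost (adjusted p = 0.0773). This block left fewer residual degrees of freedom, so its p-values lean more on the spread shared over genes. For *Smox* the edgeR adjusted p was 5.15e-101 with the block and 4.5e-08 without it. Deviations of same-numbered libraries correlated at -0.0197 over genes. This value cannot tell whether such libraries share an animal, a culture or a batch, and the labels do not say. Leaving out 1 library in turn gave 3 to 5 members higher and 3 lower, in fits where the lone library is assumed to vary like the other group; calls over all genes were 7118 and 7099 without NaBu 1 or NaBu 2, and 8850 and 8543 without control 1 or control 2. *Dohh* changed sign on library totals and in the 3 limma fits on FPKM (0.01 each) and ranged from -0.23 to 0.06 with a library left out. *Oaz1* (-0.07 to 0.14, called without control 1) changed sign with a library left out, as did these genes that were called in none of those fits: *Ahcy* (-0.06 to 0.09), *Apip* (-0.09 to 0.19), *Mat2b* (-0.03 to 0.17), *Slc18b1* (-0.38 to 0.70) and *Slc7a2* (-0.30 to 0.60). The NaBu ratio of *Azin1* to the antizymes was 0.916 to 1.26 times that of control. The cause was not tested. Depth limits *Azin2* (8 and 4 counts in control), *Slc7a2* and *Slc18b1*; the members had 288 counts or more in each library.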
